A study of Mus musculus with 8 samples.

Results

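Normalized H3K27me3 signal was at least 2-fold lower in MommeD43 than in WT neural stem cells (NSCs) in 343 of 11707 autosomal regions. That is a share of 2.93%, in a table of 13585 regions around H3K27me3 peaks. These 343 regions were chosen by the measured values themselves: chromosomes 1 to 19 and a MommeD43 value lower than the WT value by 1 or more on the log2 scale. Nothing about the size of the difference is therefore a result, and the share of 2.93% is the outcome of that choice. What the choice did not use was where the regions lie, which genes they hold, and the sequence under them. By these measures the lowered regions were poor in G and C and lay far from gene starts in gene-sparse DNA. Most of that gene-poor setting was shared by other autosomal regions of low GC content. Up to 8 lowered regions lay in 1 gene, with the highest counts in Foxp2, Stxbp5l and Erbb4.

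The study asked how the MommeD43 missense variant of Smchd1 changes chromatin, here with ChIP-seq of H3K27me3, in which DNA bound to the modified histone is pulled down and sequenced. Primary NSCs came from cortices of female mid-gestation C57BL/6J embryos and were either Smchd1GFP+/+ (WT) or homozygous for MommeD43, so Smchd1 carried a GFP tag in both groups. Each genotype had 3 H3K27me3 libraries from separate cell lines and 1 whole cell extract (WCE) library. From these data the study reported unchanged peak positions and a very high correlation between genotypes. It held ChIP-seq to be poorly suited to comparing amounts of a histone mark, and used immunofluorescence for that. The table holds 1 column per genotype, the authors' mean over its libraries, so no value below has an SD, no difference has a replicate check and no p-value is given. The columns give no value per cell line, and a lower value in a culture cannot tell fewer cells with the mark from less mark per cell. A list of genes that characterise neural stem and radial glial cells overlapped 5 autosomal regions, of which 0 were in the lowered set. RNA was not measured in these libraries, so the cell type was not checked by expression.

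H3K27me3 is placed on histone H3 by Polycomb repressive complex 2 and accompanies silent genes. In stem cells it is densest over CpG-rich promoters of developmental genes and spreads at lower density through silent gene bodies and intergenic DNA. SMCHD1 is a noncanonical SMC protein needed to keep the inactive X chromosome, imprinted clusters, Hox genes and clustered protocadherins silent, and MommeD43 was found through its stronger silencing of a transgene.

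Stretches of the reference sequence are shown first because base composition is among the properties in which the lowered regions differed from the rest. The first set shows the central 200 bases, plus strand, of 2 lowered regions inside genes: a stretch within Dazl at 17:50285376-50285575 and an intron of Erbb4 at 1:68846901-68847100. CpG dinucleotides, the substrate of DNA methylation in mammals, are in capitals here and in the promoters that follow. GC content was 27.5% and 36.0% in that order, and both held 0 CpG.
Dazl: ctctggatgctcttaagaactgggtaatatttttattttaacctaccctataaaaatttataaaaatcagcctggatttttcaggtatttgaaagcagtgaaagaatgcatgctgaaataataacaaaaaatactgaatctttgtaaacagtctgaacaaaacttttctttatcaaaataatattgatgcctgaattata
Erbb4: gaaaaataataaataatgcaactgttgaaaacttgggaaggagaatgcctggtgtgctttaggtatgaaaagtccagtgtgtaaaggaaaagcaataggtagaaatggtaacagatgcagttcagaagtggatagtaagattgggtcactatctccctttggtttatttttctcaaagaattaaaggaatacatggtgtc

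The second set shows the 250 bases before the start of 3 genes whose start lies in a lowered region, on the coding strand from RefSeq (GRCm38.p6): Stxbp5l at 16:37384959-37385208 (minus strand), Dach1 at 14:98169766-98170015 (minus strand) and Igf1r at 7:67952007-67952256 (plus strand). They are shown because these promoters were rich in CpG although the regions around them were not. GC content was 64.8%, 54.8% and 77.6%, with 14, 13 and 42 CpG.
Stxbp5l: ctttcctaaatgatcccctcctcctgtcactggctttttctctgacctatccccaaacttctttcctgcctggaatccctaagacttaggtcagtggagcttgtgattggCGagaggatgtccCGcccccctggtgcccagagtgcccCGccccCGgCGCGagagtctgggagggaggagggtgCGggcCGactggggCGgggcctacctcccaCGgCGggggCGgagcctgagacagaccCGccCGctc
Dach1: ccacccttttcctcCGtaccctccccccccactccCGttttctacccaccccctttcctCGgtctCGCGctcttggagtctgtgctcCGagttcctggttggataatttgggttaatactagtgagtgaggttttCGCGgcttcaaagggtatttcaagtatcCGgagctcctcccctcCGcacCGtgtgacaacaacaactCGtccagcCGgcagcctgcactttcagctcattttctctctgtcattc
Igf1r: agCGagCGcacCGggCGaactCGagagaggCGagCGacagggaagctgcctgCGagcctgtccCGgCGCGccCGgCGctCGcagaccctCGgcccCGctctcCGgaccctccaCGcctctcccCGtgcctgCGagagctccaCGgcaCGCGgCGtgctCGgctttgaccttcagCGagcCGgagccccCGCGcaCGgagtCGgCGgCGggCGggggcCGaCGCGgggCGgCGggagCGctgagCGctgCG

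Values are log2 normalized counts per region, scaled by the authors to library size and not divided by length. Within the lowered set, WT values ran from 5.98 to 13.86 with a median of 8.001, and MommeD43 values from 1.25 to 12.84 with a median of 6.65. Their median difference, MommeD43 minus WT, was -1.27, with quartiles of -1.51 and -1.10, and 30 regions had a difference of -2 or lower. The other autosomal regions had a median difference of 0.09. Just inside the limit lay 5 regions with differences from -1.006 to -1.001, among them a region over the glutamate transporter gene Slc1a2, and just outside lay 5 regions from -0.998 to -0.992, among them the start of Zfp804b. In the other direction, a rise of 1 or more was seen in 267 autosomal regions (2.28%). With both columns scaled to the same total, every difference moved by -0.24, and the counts became 667 lower and 138 higher.

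**Figure D1:**
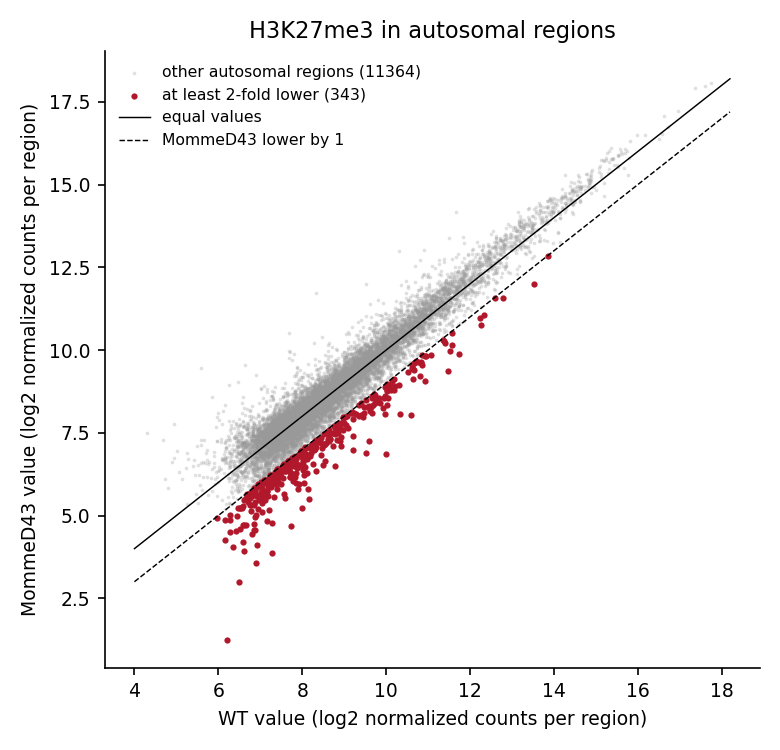
H3K27me3 values of the 11707 autosomal regions, WT on the x axis and MommeD43 on the y axis, both in log2 normalized counts per region and each the authors' mean over 3 libraries. Red points are the 343 regions at least 2-fold lower in MommeD43, which by choice lie on or under the dashed line, and they run along it from WT values of 5.98 to 13.86.

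Depth was modest for most lowered regions. From steps in the deposited values, the geometric mean number of reads per library could be read for each region. In the lowered set it had a median of 78.3 in WT and 38.1 in MommeD43, against 114 and 147 in the other autosomal regions. Under 50 reads per library lay behind 105 of the 343 WT values and 203 of the MommeD43 values. The smallest possible standard error from counting was 0.17 (log2, median), and the 95% counting interval lay wholly at or below -1 in 160 of 343 regions. PCR copies could not be told from separate molecules, so these errors cover counting only and leave out the spread between cell lines.

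The libraries behind the pooled values were estimated to contribute unevenly to lowered regions of few reads. Where the product of the 3 counts of a genotype was small enough to be split, the smallest of the 3 WT libraries was estimated to hold 8.30% of the reads in 62 lowered regions, against 13.01% in the other regions of the lowest GC group (GC content up to 41.1%) and 21.9% in the remaining autosomal regions. For MommeD43 the largest library was estimated at 61.2% in lowered regions, against 48.6% and 42.05%. The estimate does not name the library behind a share, and low products are more common where a library is nearly empty. A MommeD43 mean pulled down by 1 poor library also helps a region into the lowered set. Uneven MommeD43 shares were therefore favoured by the choice, and the part of 1 library in the differences was not tested.

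GC content was lower in the lowered regions than in the rest. Its median was 38.5% with quartiles of 36.3% and 40.9% in the 343 regions, against 46.4% with quartiles of 44.0% and 49.1% in the other 11364 autosomal regions and 49.1% in the 267 regions that were higher by at least 1. GC content was under 40% in 67.6% of lowered regions and in 4.56% of the others. The surroundings went the same way: 50 kb on each side had a median GC content of 39.5% against 45.4%. CpG was sparser still, with a median of 6.32 per kilobase against 12.5, and an observed to expected ratio of 0.17 against 0.23. The soft-masked share of the reference, which marks repeats, was alike at 22.4% and 23.1%.

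When all autosomal regions were put in 10 groups of near-equal size by GC content, 268 of the 343 lowered regions (78.1%) fell in the group of lowest GC content, 31.5% to 41.1%, where they made up 22.9% of 1171 regions. The next 4 groups held 36, 24, 9 and 5, and the upper 5 groups held 0, 0, 0, 0 and 1. The median difference over all regions of a group rose at each step, from -0.61 in the lowest group to 0.39 in the highest. In the lowest of 40 bins, of median GC content 36.6%, the median difference was already -1.04. The slope thus ran through all autosomal regions and was not confined to the lowered set. Even within the lowest group the count followed GC content: in 5 equal parts of that group from low to high, 136, 59, 35, 18 and 20 regions were lowered. All 30 regions with a difference of -2 or lower lay in the lowest group. Across the lowered regions themselves, the Spearman correlation of the difference with GC content was 0.457 (n = 343 regions that share the same pooled libraries), a description over a set that the difference had chosen.

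**Figure D2:**
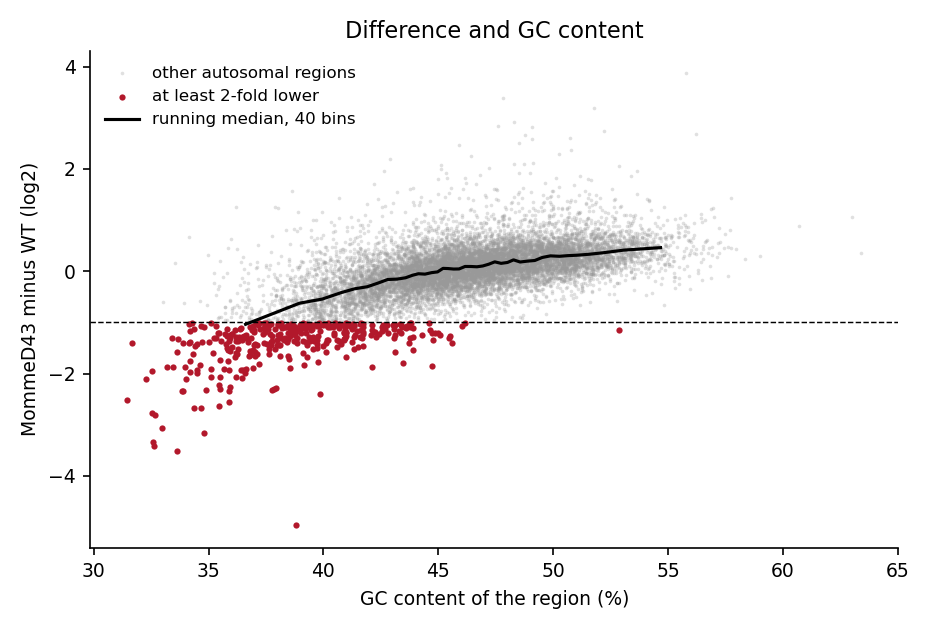
Difference between genotypes (MommeD43 minus WT, log2) against the GC content of each autosomal region. Red points are the regions at or below -1 (dashed line), the black line is the running median over 40 bins, and red points thin out above a GC content of 45%, where 7 of the 343 lie.

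**Figure D3:**
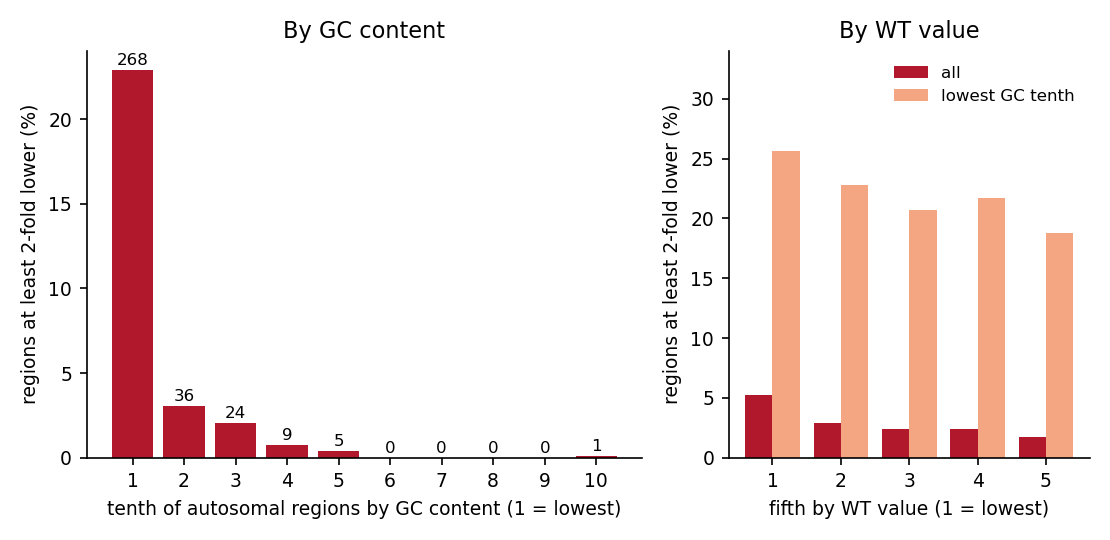
Share of autosomal regions at least 2-fold lower in MommeD43, in 10 groups by GC content (left, with the number of lowered regions above each bar) and in 5 groups by WT value (right, for all autosomal regions and for the group of lowest GC content). The lowest GC group holds 268 lowered regions at 22.9%, whereas within it the share moves from 25.7% to 18.8% between the lowest and highest WT values.

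The starting level of the mark differed far less. WT values are 1 side of the contrast that chose the regions, so they are given as a description. The median WT value was 8.001 in lowered regions and 8.54 in the others, and the median WT density was 31.3 against 36.1 normalized counts per kilobase. That order of densities turned when regions under 50 reads per library (mean of both genotypes) were left out of both sets (41.4 against 37.8), when the GC trend was removed (36.4 against 36.0), and when the trend of the difference with abundance was removed (37.1 against 36.0). The read minimum asks for more WT reads in lowered regions, whose MommeD43 reads are fewer by the choice. The turn under that minimum was therefore favoured by the filter. In 5 groups by WT value from low to high, the lowered share was 5.21%, 2.90%, 2.43%, 2.39% and 1.71%. The group of lowest WT value also included 121 of the 267 regions that were higher by at least 1. A low WT value favours such a rise by itself. That group held 421 regions of the lowest GC group, against 117 in the group of highest WT value. Among regions of the lowest GC group, the lowered and the other regions had WT values of 7.81 and 7.94 and WT densities of 28.7 and 30.7.

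Lowered regions lay apart from gene starts. A protein-coding gene start was inside 64 of them (18.7%), 113 (32.9%) lay in a gene body without a start and 166 (48.4%) overlapped no protein-coding gene, against 38.3%, 26.3% and 35.4% of the other autosomal regions. No gene of any kind was annotated in 120 of them, 34.99% against 24.4%. The nearest protein-coding start was a median of 56355 bp away, against 9688 bp. It was more than 500 kb away for 27 regions (7.87%), against 1.08% of the other autosomal regions. In the group of lowest GC content described above, it was that far for 8.96% of lowered and 6.64% of other regions. Within the surrounding 1 Mb there was a median of 4 protein-coding starts against 11, and the longest gene overlapped had a median length of 172441 bp against 59654 bp. No protein-coding exon was present in 64.1% of them, against 44.2%.

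Most of this gene-poor setting was shared by other regions of low GC content. In the lowest GC group, a start was present in 14.9% of lowered and 17.2% of other regions, and 50.7% and 52.2% lay outside genes. The share of lowered regions there was 20.5% among regions with a start, 24.9% in gene bodies and 22.4% outside genes. Differences that remained included GC content itself, 37.6% against 39.8%, and CpG per kilobase, 5.76 against 6.93. The distance to the nearest start was 61757 bp against 42122 bp, and the number of starts within 1 Mb 3 against 5. A start lay inside or within 10 kb in 24.3% against 30.8%. Lowered regions were shorter than other autosomal regions, with a median of 8300 bp against 10550 bp, and in the lowest GC group the lengths were 7775 bp and 8300 bp. Together they spanned 4196 kb, or 1.92% of the covered autosomal length. They held 1.31% of the autosomal normalized counts in WT and 0.458% in MommeD43.

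By chromosome, the lowered share was highest on chromosome 6, at 41 of 647 regions (6.34%), followed by 16 (5.85%), 3 (5.37%), 1 (4.37%) and 10 (4.06%). It was lowest on chromosome 11, at 6 of 912 (0.658%), and on chromosome 5, at 5 of 742 (0.674%). The order partly ran with base composition. Median GC content was 45.5% on chromosome 6 and 44.7% on chromosome 3, against 47.4% on chromosome 11 and 47.6% on chromosome 5. Yet chromosomes 14 and 13, at 45.5% and 44.8%, had lowered shares of only 3.08% and 3.42%. Within the lowest GC group the shares were still unequal: 37 of 93 such regions were lowered on chromosome 6 (39.8%) and 17 of 48 on chromosome 16 (35.4%), against 5 of 48 on chromosome 11 and 4 of 50 on chromosome 5. The Foxp2 regions alone were 8 of the 41 on chromosome 6 and the Stxbp5l regions 7 of the 20 on chromosome 16.

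**Figure D4:**
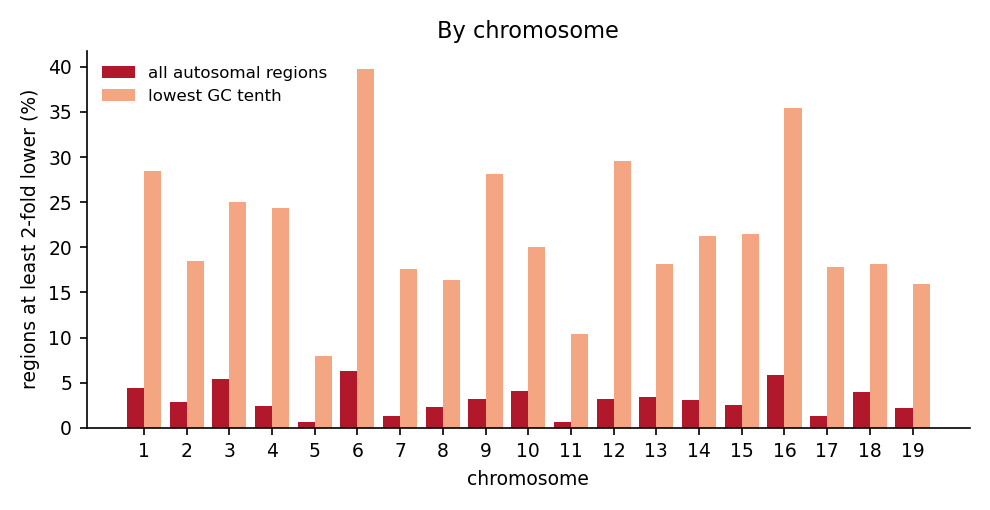
Share of regions at least 2-fold lower in MommeD43 on each autosome, among all regions (red) and among regions of the lowest GC group (orange). Chromosomes 6 and 16 stand highest in both, and chromosomes 5 and 11 stand lowest in both.

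Most lowered regions stood alone, and the others lay in short runs. In genome order, 216 of them had another kind of region on both sides, and 127 stood in 49 runs with no other autosomal region between: 33 runs of 2, 9 of 3, 5 of 4 and 2 of 7. These runs spanned 17.0 to 7088 kb, so not all were local. The nearest other lowered region was a median of 976001 bp away, and within 100 kb for 98 of the 343. The same counts were not made for other regions. Regions outside the lowered set were below 0 in 40.6% of all cases and in 82.3% of those of the lowest GC group, whose median difference was -0.47. Those next to a lowered region had median differences that were closer to 0 at larger gaps: at gaps under 10 kb their median difference was -0.64 (62 neighbours, 87.1% below 0), at 10 to 50 kb -0.39, at 50 to 200 kb -0.30, at 200 to 1000 kb -0.23 and beyond that -0.10. Neighbours under 10 kb away had a median GC content of 41.3%, and with the GC trend removed their median difference was -0.21.

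Both runs of 7 covered a single gene of the nervous system. Stxbp5l (ENSMUSG00000022829.14, 16:37114942-37384962, minus strand) encodes tomosyn-2, a relative of syntaxin-binding proteins that restrains vesicle release. All 7 autosomal regions over it were lowered, with differences from -2.34 to -1.65. The region at its start, 16:37359201-37402450, with 2292 bp of exons, fell from 11.46 to 9.38, a difference of -2.09 with a counting error of 0.06, from 865 to 253 reads per library. Over the 7 regions together, density fell from 41.4 to 9.60 normalized counts per kilobase. GC content of the 7 regions had a median of 35.5%.

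Foxp2 (ENSMUSG00000029563.16, 6:14901349-15441977, plus strand), a forkhead transcription factor of circuits for vocal learning, held 8 lowered regions among 10. The run of 7 at 6:15174351-15348250 had differences from -3.16 to -1.78, whereas the region at the gene start, not in the lowered set, differed by -0.90.

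Erbb4 (ENSMUSG00000062209.15, 1:68032186-69108059, minus strand), the neuregulin receptor tyrosine kinase of migrating interneurons, held 7 lowered regions among 11, all of them free of exons. The region 1:68841501-68852500 fell from 7.91 to 5.80, by -2.11 with a counting error of 0.21. The region 1:68819601-68826100 had a difference of -3.34, from 36.7 to 4.48 reads per library, with an error of 0.42. Regions of the same gene that stayed outside the lowered set had differences from -0.82 to -0.08, the last at the gene start, where GC content was 44.3%. Summed over the 11 regions, density went from 35.9 to 19.8 normalized counts per kilobase.

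**Figure D5:**
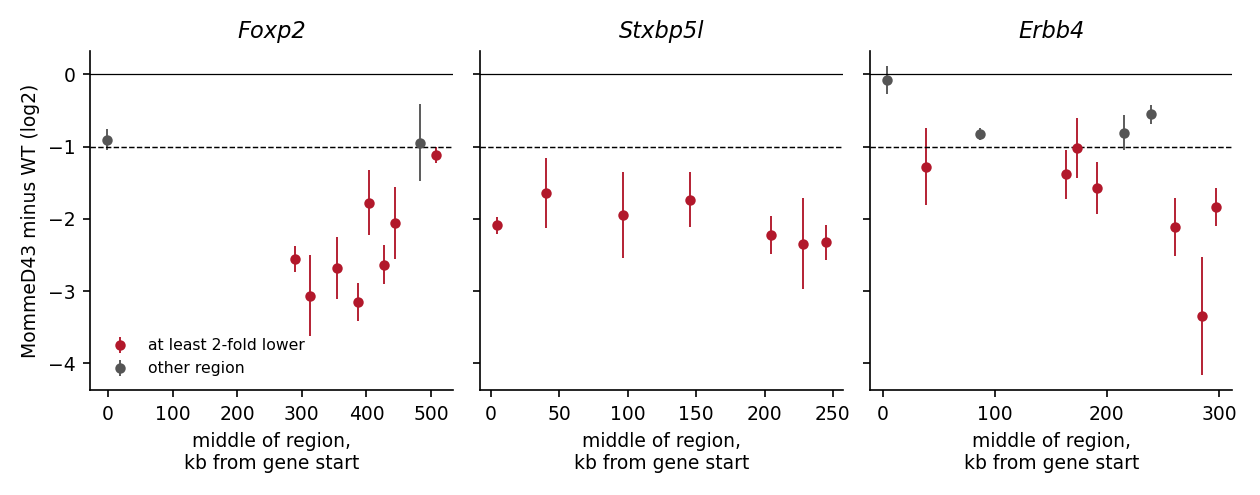
Difference between genotypes (MommeD43 minus WT, log2) of every autosomal region over Foxp2, Stxbp5l and Erbb4, placed by the distance of its middle from the gene start in kilobases along the direction of transcription. Bars are 95% counting intervals and do not include variation between cell lines, and the dashed line marks -1. All 7 Stxbp5l regions lie under the line, whereas the start regions of Foxp2 and Erbb4 lie above it.

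Gene bodies were set beside the starts of the same genes. Of the 113 lowered gene-body regions, 58 lay in a gene whose start was in another autosomal region. These 58 pairs came from 36 genes, and in 51 of the pairs the start region was less lowered or higher. The 36 start regions had a median difference of -0.40, a median GC content of 43.4% and included 6 lowered regions. For other gene-body regions of the lowest GC group, start regions had a median of -0.16 and a median GC content of 43.6%, and in 79 of 126 pairs the start was less lowered or higher. Over all other autosomal gene-body regions, the start was less lowered or higher in 936 of 1669 pairs, with median differences of 0.15 at starts and 0.09 in bodies. The count of 51 starts from regions picked for a large fall, so a less lowered or higher partner is favoured by the choice.

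A further 5 genes held 3 or more lowered regions. Sycp1, which encodes a protein of the synaptonemal complex of meiosis, held 4 of 5, with differences from -1.87 to -1.31. Ccdc73 held 3 of 4, of which 2:104924901-104950000 fell from 9.96 to 8.07, by -1.89 with an error of 0.10. Kcnh7, a voltage-gated potassium channel of the Erg type, held 3 of 4. Its start region 2:63170601-63188650 differed by -1.23 with an error of 0.08, whereas the adjoining 2:63163401-63169150 differed by -3.42 on 5.52 MommeD43 reads per library. Dlg2, a scaffold of the postsynaptic density, held 3 of 11, including its start at 7:90473601-90484450 with -1.37, which also holds the start of Tmem126b. Slc25a21, a mitochondrial carrier, held 3 of 8. Its region 12:57183651-57192250 had the lowest MommeD43 value of the set, 1.25, against 6.21 in WT. It corresponded to 0.900 reads per library, against 22.6 in WT, and its product was not a whole number, so no difference is given for it.

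The lowered regions of most negative difference, when WT had no fewer than 50 reads per library, were mainly of low GC content. Apart from the genes above, they included 17:50278701-50292250 over Dazl, a germ cell RNA-binding protein, which fell from 8.004 to 5.243, by -2.76 with an error of 0.24 and a GC content of 32.5%. Near Tfpi2, which encodes an inhibitor of serine proteases, 2 regions 75.02 and 58.97 kb from its start differed by -2.34 and -2.07. At 3:134388351-134398750, 152 kb from the start of Cxxc4, a zinc finger protein that inhibits Wnt signalling, the difference was -2.30. Other regions outside protein-coding genes, each over an annotated gene of another kind (Gm11924, Gm29478 and Dcdc5 in that order), were 4:30495951-30503950, 1460 kb from Map3k7, with -2.06, 9:91482951-91494250, 117 kb from the neural transcription factor gene Zic1, with -1.98, and 2:106153701-106164850, 150 kb from Dnajc24, with -1.90. In gene bodies, Lrba at 3:86596251-86606200 differed by -1.98, the testis kinase gene Stk31 at 6:49433901-49446250 by -1.97 and Ankrd31, needed for meiotic recombination, at 13:96795951-96802600 by -1.93. Dach1, a nuclear cofactor of eye and limb development, was lowered at its start: 14:98155101-98178250 fell from 10.34 to 8.06, by -2.28 with an error of 0.09, from 397 to 101 reads per library.

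The 64 lowered regions with a gene start had more reads and more CpG than the rest of the set. Their median WT value was 8.87, their median GC content 40.2% and their densest 500 bases held a median of 45 CpG. Other autosomal regions with a start had a median GC content of 47.6% and 50.5 CpG in their densest 500 bases, so the difference lay more in the surrounding sequence than in the CpG-rich core. Promoters told the same: of the 70 protein-coding genes with a start in a lowered region, 57 had a promoter in the RefSeq table, and the 250 bases before the start had a median GC content of 60.4% with 16 CpG, against 59.2% with 13 CpG for 4434 genes with a start in other autosomal regions. At least 10 CpG were present in 63.2% of the first, 62.0% of the second and 38.8% of all 25748 autosomal promoters of the table. The printed promoters of Stxbp5l, Dach1 and Igf1r all had more than 10.

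Some lowered regions had many reads and a higher GC content. Igf1r encodes the receptor of insulin-like growth factor 1, and its region 7:67898601-67959250 fell from 13.534 to 11.996, a difference of -1.54 with a counting error of 0.03, from 3628 to 1551 reads per library at a GC content of 43.9%. Igf2bp2, an RNA-binding protein that carries Igf2 mRNA, had a start region, 16:22150401-22171300, that fell from 10.92 to 9.08, by -1.85 with an error of 0.07. These regions, like those of Mir17hg, Gnao1 and Rictor that follow, were picked after their values were seen, as lowered regions with many reads. The region 14:115009551-115043350, which overlaps Mir17hg, the host transcript of the miR-17-92 cluster, fell from 11.74 to 9.87, by -1.87 with an error of 0.05. The start of Gnao1, a G protein subunit abundant in brain, at 8:93788151-93825700 differed by -1.40, and that of Rictor, a subunit of the mTORC2 kinase complex, at 15:6698901-6710650 by -1.31. The longest lowered region and the one of highest WT value were the same, 2:94156551-94249900, of 93.35 kb with the start of Hsd17b12 and the miRNA gene Mir129-2. It fell from 13.86 to 12.84, by -1.01 with an error of 0.02.

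The family lists, written with earlier results of these data known, are set beside the background of 2.93% lowered among autosomal regions, whose median difference was 0.08, and nothing is read from the comparison because the same contrast chose the regions. The first lists hold developmental transcription factors, many of them Polycomb targets. Homeobox genes, which set up body and brain regions, had 0 of 161 regions in the lowered set, with a median difference of 0.33 and a lowest of -0.97. Sox genes had 0 of 8, T-box genes 0 of 12, and basic helix-loop-helix genes 1 of 59, at Sim1. Developmental zinc finger genes and nuclear receptors had 1 of 106, at Nr3c1, and genes named Zfp, Zscan or Zkscan had 1 of 104, at Zfp950, whose start region differed by -1.03. The forkhead list had 8 of 43 (18.6%), all of them at Foxp2. Of the 161 homeobox regions, 10 lay in the lowest GC group, and their median GC content was 46.9%.

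The next lists hold adhesion and synaptic genes. The synaptic and immunoglobulin adhesion list had 12 of 131 (9.16%), with a median difference of -0.12 over the list and 25 of its regions in the lowest GC group. The genes they overlapped included Cntn5, Dlg2, Magi2, Nrxn3, Slitrk3, Tenm2 and Tenm3. Starts were lowered at Slitrk3, a synaptic adhesion protein, by -1.35 (3:73051251-73068850), at the scaffold gene Magi2 by -1.25 (5:19224651-19232650), at the teneurin gene Tenm2 by -1.25 (11:37224051-37240450) and at the contactin gene Cntn5 by -1.15 (9:10886751-10912000). Cadherins and non-clustered protocadherins had 2 of 35, both starts: Pcdh17 at 14:84437601-84455200 with -1.19, and Pcdh10 at 3:45376551-45383350 with -1.15. The Pcdh10 region had the highest GC content of the lowered set, 52.9%, and 43.1 reads per library in WT, with a counting error of 0.21. Clustered protocadherins, known targets of SMCHD1, had 0 of 3 regions that overlapped a gene of that name, with a median difference of -0.66. The lowered region 18:37208001-37219750 nevertheless lay in that locus: it overlapped the gene models Gm42416, Gm37013 and Gm37388, its nearest start was that of Pcdhb1 at 45.2 kb, and its difference was -1.23 with an error of 0.12.

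In axon guidance genes 4 of 91 regions were lowered, in Epha3, Epha7, Plxna2 and Robo2. The start of Epha7, an ephrin receptor, at 4:28806801-28836400 fell from 11.53 to 9.96, by -1.57 with an error of 0.05. Voltage-gated potassium channels had 3 of 45, all in Kcnh7, and other ion channels had 0 of 163. Glutamate and GABA receptors had 2 of 69, including the start of the kainate receptor gene Grik2, where 10:49783851-49793200 differed by -1.41. Monoamine, muscarinic and peptide receptors had 1 of 68, at Adra1a, and secreted ligands 1 of 91, at Nrg1, which encodes a ligand of ErbB receptors. Olfactory and vomeronasal receptors had 3 of 36 (8.33%), including the starts of Olfr1535 (-1.35) and Olfr1420, the latter just inside the limit at -1.001. Keratins had 0 of 18. None of these lists was compared with regions of like base composition.

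Taking away the running median of the difference over GC content left 70 of the 343 regions at or below -1, together with 10 others, and 340 of the 343 below 0. The remaining difference of the 343 had a median of -0.67. The lowest value of the trend was -1.04, so regions chosen at -1 or lower could hardly reach 0. The count below 0 was thus largely set by the choice. Below the GC content of the lowest bin the trend is held constant, so some of the trend can remain in regions of the lowest GC content. Apart from the Slc25a21 region of under 1 read, the most negative after this step were 15:44560101-44565700 in Pkhd1l1 at -2.48 on 3.00 MommeD43 reads per library, the Kcnh7 region 2:63163401-63169150 at -2.38, the Erbb4 region 1:68819601-68826100 at -2.31 and the Foxp2 region 6:15277101-15299800 at -2.12. Of these 4, only the Foxp2 region had more than 10 MommeD43 reads per library, 43.9. At Igf1r, with more reads and a higher GC content, the difference after this step was -1.46, and at Igf2bp2 it was -1.82. The lowest WT value, 5.98 at 3:8259351-8264650, and the lowest GC content, 31.5% at 4:26924451-26933800, belonged to regions outside protein-coding genes with differences of -1.04 and -2.52.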

How the data were processed

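H3K27me3 ChIP-seq was measured in 3 libraries per genotype with the antibody C36B11. Per the labels DNA was fragmented with MNase, whereas the study's methods describe shearing. The submitters' processing notes name Trim Galore 0.4.4 and Bowtie2 2.3.4.1. According to the methods, the authors called peaks in SeqMonk on merged replicates of each genotype, widened and merged them, and deposited log2 normalized counts per region as 1 pooled column per genotype, on the GRCm38 build. Individual libraries and WCE libraries were not analysed here.

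From the deposited log2 values, the difference was MommeD43 minus WT, and regions at or below -1 on chromosomes 1 to 19 were taken. The threshold, family lists and named genes were chosen with earlier results of these data known. GC content, CpG and soft-masking were counted on the GRCm38 reference and gene positions taken from its GENCODE annotation. A region with a protein-coding start was classed as gene start, any other overlapping a protein-coding gene as gene body. The GC trend was the running median of the difference in 40 bins. One read was worth 3.27 normalized counts in WT (1138 of 1139 low values whole) and 2.63 in MommeD43 (681 of 684), found from whole-number products of the 3 counts. Library shares were estimated from these products. The steps were tested on simulated data. Named were regions of most negative difference with at least 50 WT reads, genes with 3 or more lowered regions, starts in the family lists, the 5 regions on each side of the threshold, the 5 of most negative difference after GC trend removal, and extremes of length, WT value and GC content. Other regions are said to be chosen after their values were seen. Some items are not reported here. With pooled columns no test was run. Alternatives were other scalings, abundance trend and GC trend removal, a read minimum, another threshold, a pseudocount and the counting interval. Python 3.11.15, numpy 2.4.6, pandas 2.3.3 and matplotlib 3.10.9 were used.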

Additional observations from a re-analysis of the deposited data

How the results depend on the processing

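Without replicates, counts of regions were compared within 1.5 times of 343, and medians and shares with a 95% interval over regions, which share the same pooled libraries and give no replicate error. The number of lowered regions, 343, became 667 when both columns were scaled to the same total, 80 with the GC trend removed, 194 with at least 50 reads per library as the mean of both genotypes, 88 at a threshold of -1.5 and 160 where the whole counting interval had to pass. It stayed within 1.5 times with the trend of the difference with abundance removed (317, of which 270 shared), with the autosomal median set to 0 (423) and with a pseudocount of 10 (284). Median GC content, 38.5%, became 39.8%, 41.4%, 39.5% and 36.2% under the same total, GC trend removal, the read minimum and the threshold of -1.5. It remained below that of the other autosomal regions in each. Median WT density, 31.3 normalized counts per kilobase, became 37.1 with the abundance trend removed, 36.4 with the GC trend removed, 41.4 with the read minimum and 26.8 at -1.5. The share with a gene start, 18.7%, became 30% with the GC trend removed, 26.3% with the read minimum and 12.5% at -1.5. The other autosomal regions had 37.8%, 40.5% and 38.0% in these settings, so the gap was narrower with the GC trend removed. The scaling to the same total moved all differences by -0.24. No paired analysis was possible because each genotype has a single pooled column, and for the same reason no library could be left out.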

Other observations

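Some lowered regions overlapped genes known from the germ line and meiosis. They were picked after their values were seen, from no fixed list, and were not set against a background. Beside Dazl, Sycp1, Stk31 and Ankrd31, a second Ankrd31 region, 13:96848901-96855550, differed by -1.38 and a second Stk31 region, 6:49396101-49408300, by -1.20. The start of Mei4, needed for meiotic double-strand breaks, lay in 9:81857901-81866500, which fell from 8.21 to 7.06, by -1.15 with a counting error of 0.15. After subtraction of the GC trend, the difference was -1.73 at Dazl. It was -0.93 and -0.17 in the Stk31 regions, -0.90 and -0.54 in the Ankrd31 regions, from -0.83 to -0.27 in the Sycp1 regions and -0.50 at Mei4. The selection is not complete: a further lowered region, 15:103416201-103424050 over Gtsf1, differed by -1.13 at a GC content of 41.2%.

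For the 166 lowered regions outside protein-coding genes, the nearest protein-coding start was taken. It was that of Dnajc24 for 4, Kirrel3 for 4, Tfec for 4, Csmd1 for 3 and Cxxc4 for 3. The regions counted for Dnajc24 all overlapped Dcdc5, an annotated gene of another kind. Distances to the start were 150 to 201 kb for Dnajc24, a cofactor of diphthamide synthesis. They were 437 to 891 kb for Kirrel3, a synaptic adhesion gene. For Tfec, a transcription factor of the MiT family, they were 30.01 to 166 kb, and for Cxxc4 67.4 to 165 kb.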
